A study of Mus musculus with 24 samples.

Results

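The 32 genes described here code for mouse enzymes that take methyl groups off histones, DNA or RNA with the help of molecular oxygen, together with close relatives that share their catalytic fold. They were taken from a given list of gene symbols that holds many, not all, of the lysine demethylases and other proteins with a Jumonji C domain, the LSD1 family, the TET enzymes, and FTO with 3 ALKBH enzymes. Kdm5c and Kdm6a, demethylases outside the list, were counted among other oxygenases. The arrays measured 19938 genes with a probe set of their own, and 31 of the 32 were among them. Alkbh1 was covered only by a probe set that is also annotated to Nrp, so its value belongs to both names.

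The study cultured primary cells from the cortex and the mesencephalon (midbrain) of C57Bl/6 mouse fetuses at embryonic day 14 in expansion medium, a medium that keeps neural progenitors dividing. The culture time was 48 h or 13 d and the oxygen 3% O2 (a hypoxic gas mix) or 21% O2. RNA from 1 culture well was put on 1 array. Region, time and oxygen gave 8 groups of 3 arrays: midbrain 48 h, midbrain 13 d, cortex 48 h and cortex 13 d, each at 3% and at 21% O2. The comparisons asked what low oxygen did to the genes in each setting. Nothing in the labels ties an array to a dissection or an animal, so all p-values here reflect only the scatter among these arrays, part of which may be technical.

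Most of these enzymes carry an iron atom and use 2-oxoglutarate as a second substrate. Oxygen is consumed in every reaction, as it is by the prolyl hydroxylases that mark the hypoxia-inducible factor HIF for destruction. The Jumonji C enzymes oxidise the methyl group of a histone lysine, the TET enzymes oxidise 5-methylcytosine in DNA, and FTO and ALKBH5 remove the methyl group of N6-methyladenosine in RNA. LSD1 and LSD2 (Kdm1a and Kdm1b) use oxygen with a flavin instead of iron. In neural progenitors these enzymes work against the methyltransferases that hold neuronal and glial genes silent or open. Kdm3a is a textbook target of HIF.

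Values below are deposited log2 array values or differences between group means of them, with the standard error (SE) of the fit and n = 3 arrays per group. The words rose and fell are kept for genes whose adjusted p from limma, taken over 23410 named probe sets, was below 0.05. Arrays of a group correlated with Pearson's r of 0.988 to 0.999, the lowest belonging to replicate 1 of cortex 48 h at 21% O2. The low oxygen itself was visible in every setting, with the fewest calls in cortex 48 h. Of 12 genes of a HIF target panel, 8 rose in midbrain 48 h and 10 in midbrain 13 d. In cortex 48 h 4 rose and in cortex 13 d 10, and 0 fell in any setting. Pdk1, a kinase that limits mitochondrial pyruvate use, rose by 1.57 in midbrain 48 h (SE 0.23, limma adjusted p = 0.00155) and by 2.74 in cortex 13 d (SE 0.23, adjusted p = 2.73e-06). In cortex 48 h it was at 0.66 (adjusted p = 0.0693) and did not pass. The panel genes Slc2a1 at 0.55 (adjusted p = 0.0864) and Vegfa at 0.55 (adjusted p = 0.126) did not pass there either. All 6 cortex arrays labelled 48 h lay closer to midbrain 13 d than to midbrain 48 h over all probe sets, and all 6 labelled 13 d lay closer to midbrain 48 h. Whether the cortex times are exchanged in the labels cannot be told here, so settings of the same label may differ in culture time between regions. The cortex times are given as labelled. Comparisons that match times between regions are also given with the cortex times crossed. In these bulk cultures, fewer cells of a type and less RNA per cell cannot be told apart.

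Low oxygen raised a few demethylase genes in several settings and lowered a larger group in midbrain 13 d. Of the 32 genes, 2 rose and 0 fell in midbrain 48 h, where 1.19% of all probe sets passed (limma, 0.701% higher and 0.491% lower). At an unadjusted p under 0.05, 6 members were higher and 6 lower there. The share of all probe sets at that unadjusted threshold was not counted, in this or the later settings and lists. Midbrain 13 d had 3 that rose and 10 that fell, against 23.9% of all probe sets (11.2% higher and 12.7% lower). Cortex 48 h had 2 that rose and 2 that fell, against 12.3% of all probe sets (6.25% higher and 6.08% lower). In cortex 13 d 5 rose and 0 fell, against 0.607% of all probe sets (0.543% higher and 0.0641% lower), with 10 higher and 0 lower at an unadjusted p under 0.05.

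As shares, 6.25% of the members passed in midbrain 48 h, 40.6% in midbrain 13 d, 12.5% in cortex 48 h and 15.6% in cortex 13 d. The cortex 48 h share was near that of all probe sets. Its 4 calls became 9 without replicate 1 at 21% O2 and 13 with array weights. Those weights were 5.05 for replicate 3 and 0.23 for replicate 1 of cortex 48 h at 21% O2. The share of all probe sets was not counted under these or the other alternatives, except with the cortex times crossed. The median change of the 32 genes was 0.04, -0.06, -0.01 and 0.02 in the same order, beside -0.02, -0.01, 0.00 and -0.01 for all probe sets. The members were brighter than most probe sets. Of the tested probe sets, 83.8% had a lower mean over the 24 arrays than the median member. The shares of all probe sets, here and elsewhere, were not matched for brightness. Whether equally bright genes passed as often as the members was not tested. Over the 4 settings, 16 of the 32 genes passed at least once and 16 did not pass at all. Of those that passed, 6 only rose and 10 only fell, and 0 did both.

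The counts in the 48 h settings moved with the scaling. After quantile normalization or median centring of the arrays, midbrain 48 h gave 2 higher and 2 lower, the latter being Kdm2b and Fto. Cortex 48 h gave 5 higher and 2 lower after quantile normalization, and 2 higher and 4 lower after centring. When the 6 compared arrays were fitted alone, 0 members passed in midbrain 48 h and 0 in cortex 48 h. The 13 d splits were 3 against 10 and 5 against 0 under both scalings.

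**Figure D1:**
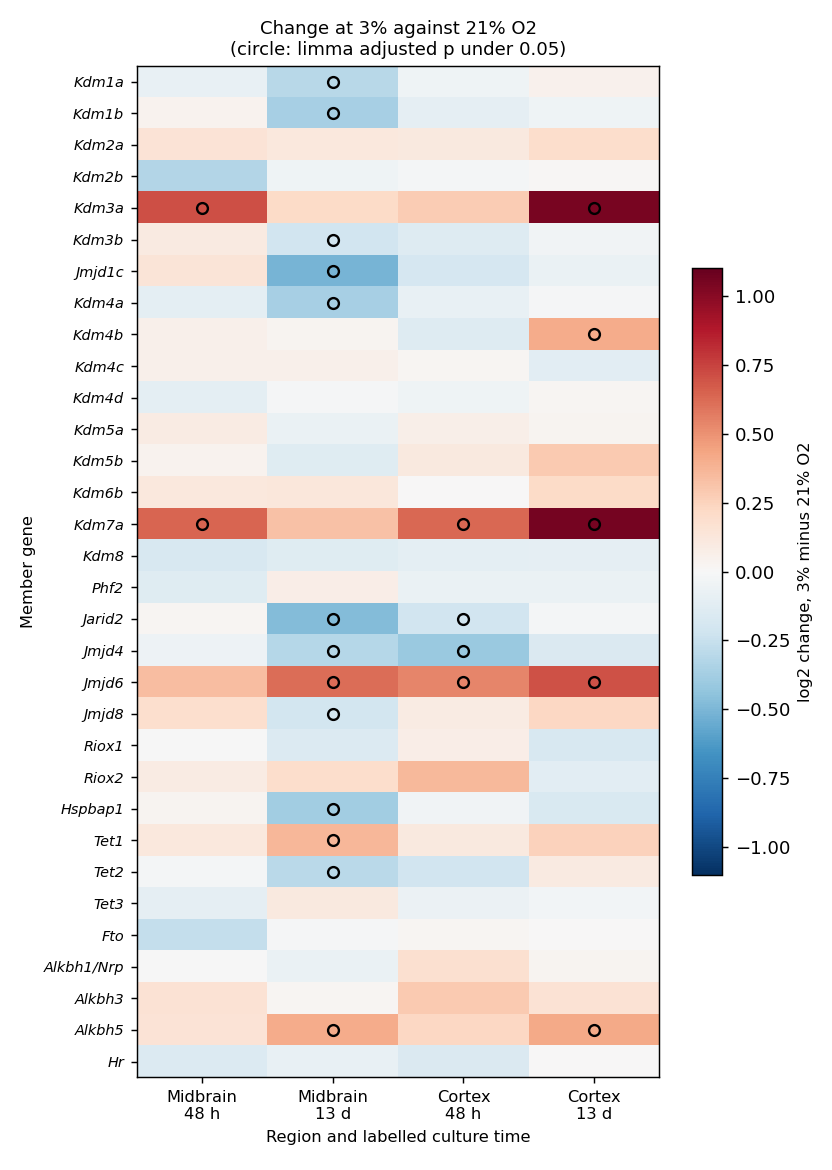
Change of each of the 32 genes at 3% against 21% O2 (colour, log2 difference of group means, n = 3 arrays each; red is higher at 3% O2) in the 4 settings of region and labelled culture time. Circles mark limma adjusted p under 0.05 and show Kdm3a, Kdm7a and Jmjd6 recurring among the genes that rose, and 10 circled genes that fell in midbrain 13 d.

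Kdm3a, which removes mono- and dimethyl marks from lysine 9 of histone H3, rose in midbrain 48 h and cortex 13 d. Its arrays in midbrain 48 h read 10.59, 10.07 and 10.07 at 3% O2 and 9.55, 9.52 and 9.53 at 21% O2. In cortex 13 d they read 10.86, 10.88 and 10.85 at 3% O2 and 9.87, 9.79 and 9.79 at 21% O2. The groups did not overlap in either setting, and replicate 1 was the highest of the midbrain 48 h arrays at 3% O2. How many of all probe sets had groups without overlap was not counted, here or below. Kdm3a rose by 0.71 in midbrain 48 h (SE 0.10, 1.64-fold, adjusted p = 0.000981) and by 1.04 in cortex 13 d (SE 0.10, 2.06-fold, adjusted p = 7.76e-06). In midbrain 13 d the difference was 0.21 (SE 0.10, adjusted p = 0.155) and in cortex 48 h 0.28 (SE 0.10, adjusted p = 0.0734), both on the higher side in each array.

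Levels of Kdm3a at 21% O2 were not alike across these settings. The group means at 21% O2 were 9.54 in midbrain 48 h, 10.73 in midbrain 13 d, 10.52 in cortex 48 h and 9.82 in cortex 13 d. At 3% O2 they were 10.25, 10.94, 10.80 and 10.86. The 2 settings where Kdm3a rose were thus those with the lower level at 21% O2. The 21% O2 mean is itself part of each difference, so the level and the rise are tied by arithmetic. The midbrain 13 d arrays formed a run of their own, so their levels here cannot be told apart from the run. The mean of the 12 HIF panel genes at 21% O2 was 8.70, 10.44, 10.51 and 9.12 in the same order, and at 3% O2 it was 9.78, 11.54, 11.06 and 10.91. Whether that difference in the 21% O2 cultures has a part in the response of Kdm3a was not tested.

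Kdm7a codes for a demethylase with a PHD finger that acts on dimethylated lysine 9 and lysine 27 of histone H3, and it rose in 3 of the 4 settings. Its arrays in midbrain 48 h read 10.34, 9.91 and 10.01 at 3% O2 against 9.35, 9.44 and 9.55 at 21% O2. In cortex 48 h they read 10.62, 10.65 and 10.53 against 9.64, 10.20 and 10.09, and in cortex 13 d 10.18, 10.32 and 10.34 against 9.37, 9.07 and 9.26. All 3% O2 arrays lay above all 21% O2 arrays in each of these settings. The rise was 0.64 in midbrain 48 h (SE 0.12, adjusted p = 0.00925), 0.63 in cortex 48 h (SE 0.12, adjusted p = 0.00129) and 1.05 in cortex 13 d (SE 0.12, 2.07-fold, adjusted p = 3.16e-05). The midbrain 13 d difference was 0.32 (SE 0.12, adjusted p = 0.0529).

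Kdm7a has another probe set on the array, which gave 0.44 in midbrain 48 h (adjusted p = 0.137), 0.40 in midbrain 13 d (adjusted p = 0.0468), 0.76 in cortex 48 h (adjusted p = 0.00117) and 1.02 in cortex 13 d (adjusted p = 0.000356). The probe sets thus differed on which midbrain setting passed. Without replicate 1 of midbrain 48 h at 3% O2, Kdm7a no longer passed there, and its lowest value over all settings tried was 0.44, with an adjusted p of up to 0.182. That array also had the highest HIF panel mean of its group, at 10.24 against 9.41 and 9.69, and the part of this in the rise was not tested. The 21% O2 group of cortex 48 h was spread in the other direction: replicate 1 had the lowest Kdm7a value and a HIF panel mean of 10.08 against 10.78 and 10.67.

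Jmjd6 codes for a Jumonji C enzyme best known as a lysyl hydroxylase of splicing factors, and it rose in 3 settings. In midbrain 13 d its arrays read 10.43, 10.73 and 10.63 at 3% O2 and 9.91, 9.95 and 10.09 at 21% O2. In cortex 48 h they read 10.91, 10.59 and 10.69 against 10.10, 10.26 and 10.21, and in cortex 13 d 10.39, 10.33 and 10.38 against 9.71, 9.64 and 9.63. Each 3% O2 array was above each 21% O2 array of its setting. The rise was 0.61 in midbrain 13 d (SE 0.09, 1.53-fold, adjusted p = 2.68e-05), 0.54 in cortex 48 h (SE 0.09, adjusted p = 0.000344) and 0.70 in cortex 13 d (SE 0.09, adjusted p = 0.000103). In midbrain 48 h the groups were also apart, with 9.98, 9.71 and 9.85 against 9.59, 9.38 and 9.54, and the difference of 0.34 had an adjusted p of 0.0617.

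Alkbh5, an eraser of N6-methyladenosine in nuclear RNA, rose in both settings labelled 13 d. Its arrays in cortex 13 d read 10.82, 10.85 and 10.79 at 3% O2 and 10.50, 10.42 and 10.30 at 21% O2, with no overlap. The rise was 0.40 in midbrain 13 d (SE 0.09, adjusted p = 0.00213) and 0.41 in cortex 13 d (SE 0.09, adjusted p = 0.0378). The cortex call was lost on leaving out any 1 of its 6 arrays, where the adjusted p reached 0.24. Fto, the other N6-methyladenosine eraser, did not rise in any setting, and its differences lay between -0.26 and 0.02.

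Kdm4b, which removes trimethyl marks from lysine 9 of histone H3, rose in cortex 13 d alone among the 4 settings. Its arrays there read 10.18, 10.26 and 10.20 at 3% O2 and 9.89, 9.74 and 9.77 at 21% O2. All arrays at 3% O2 were above those at 21% O2, and the rise was 0.41 (SE 0.09, adjusted p = 0.0329). Leaving out any of 5 arrays ended the call, with adjusted p up to 0.192. The cortex 48 h difference was -0.14 (adjusted p = 0.358), where replicate 1 at 21% O2 read 9.62 against 10.06 and 9.98.

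**Figure D2:**
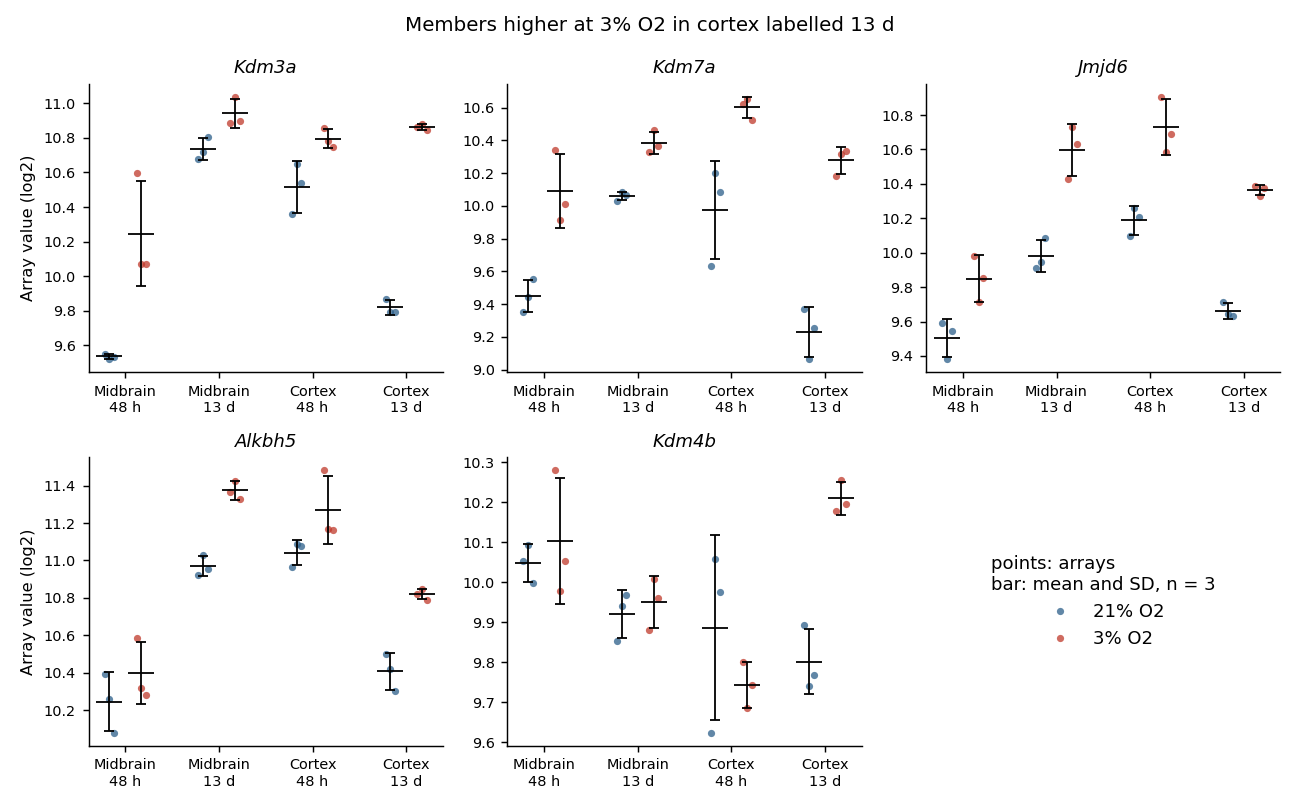
Log2 array values of Kdm3a, Kdm7a, Jmjd6, Alkbh5 and Kdm4b in the 8 groups (points are arrays, bars the mean and SD, n = 3; blue 21% O2, red 3% O2). The genes were plotted because they rose in cortex 13 d, where the red points of all 5 lie above the blue ones. The 21% O2 points of Kdm3a are lowest in midbrain 48 h and cortex 13 d. The midbrain 13 d arrays formed a run of their own.

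The promoters of these genes are shown because HIF binds the letters ACGTG or GCGTG, and 5 of the 6 genes that rose in any setting had a window in the RefSeq promoter table (assembly GRCm38.p6), all but Kdm4b. Each sequence below holds the 250 bases before the annotated start, 5′ to 3′ on the gene's strand, with ACGTG or GCGTG on either strand in capitals.
Kdm3a (chr6:71632918-71633167, minus strand): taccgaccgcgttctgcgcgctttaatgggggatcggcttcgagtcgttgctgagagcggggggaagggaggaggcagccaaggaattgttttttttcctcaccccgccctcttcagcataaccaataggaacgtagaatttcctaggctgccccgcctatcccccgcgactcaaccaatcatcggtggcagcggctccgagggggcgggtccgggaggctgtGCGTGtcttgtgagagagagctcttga
Kdm7a (chr6:39206774-39207023, minus strand): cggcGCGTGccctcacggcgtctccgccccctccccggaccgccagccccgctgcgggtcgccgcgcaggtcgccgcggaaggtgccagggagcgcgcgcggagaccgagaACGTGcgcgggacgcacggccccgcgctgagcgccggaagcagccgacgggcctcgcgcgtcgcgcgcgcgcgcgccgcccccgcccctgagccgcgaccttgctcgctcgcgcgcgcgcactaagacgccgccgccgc
Jmjd6 (chr11:116843450-116843699, minus strand): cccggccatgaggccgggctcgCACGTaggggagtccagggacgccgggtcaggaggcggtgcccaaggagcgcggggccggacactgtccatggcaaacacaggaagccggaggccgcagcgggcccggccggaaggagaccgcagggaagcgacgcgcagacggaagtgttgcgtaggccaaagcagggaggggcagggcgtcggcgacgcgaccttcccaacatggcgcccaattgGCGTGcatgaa
Alkbh5 (chr11:60537433-60537682, plus strand): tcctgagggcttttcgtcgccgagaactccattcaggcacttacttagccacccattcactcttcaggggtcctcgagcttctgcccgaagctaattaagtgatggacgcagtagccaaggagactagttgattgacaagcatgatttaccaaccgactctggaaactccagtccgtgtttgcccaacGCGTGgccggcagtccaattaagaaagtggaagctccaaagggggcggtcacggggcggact
Tet1 (chr10:62887325-62887574, minus strand): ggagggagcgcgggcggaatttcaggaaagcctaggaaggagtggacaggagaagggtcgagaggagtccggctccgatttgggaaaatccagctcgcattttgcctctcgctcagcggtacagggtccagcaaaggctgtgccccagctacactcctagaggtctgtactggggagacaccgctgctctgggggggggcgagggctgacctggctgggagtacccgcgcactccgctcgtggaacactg

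The Kdm3a window held 1 match, starting 27 bases before the start, and the other 2 annotated Kdm3a starts had 0 matches. Kdm7a and Jmjd6 held 2 matches each, Alkbh5 held 1 and Tet1 held 0. Such matches were common: 55.9% of the 34 windows found for 26 members held at least 1, against 38.6% of all 32851 windows in the table. The member windows were also richer in G and C, with a median of 60.8% against 52.4%. Among genes that fell in midbrain 13 d, the windows found ranged from 0 matches, as in Kdm1a, Kdm4a and Jmjd8, to 7 in Hspbap1. Whether matches go with the direction of change was not tested. The CACGTG palindromes of the Hspbap1 window count on both strands.
Hspbap1 (chr16:35770136-35770385, plus strand): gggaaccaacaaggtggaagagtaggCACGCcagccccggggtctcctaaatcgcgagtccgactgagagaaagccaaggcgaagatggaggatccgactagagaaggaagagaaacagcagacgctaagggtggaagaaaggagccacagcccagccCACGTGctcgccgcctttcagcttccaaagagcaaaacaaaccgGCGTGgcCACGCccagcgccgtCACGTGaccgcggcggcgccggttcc
A match here is a run of letters in this window and was not tested for binding.

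In midbrain 13 d the change was mostly downward and small in size, and it crossed several families. The 10 genes that fell were Kdm1a, Kdm1b, Kdm3b, Jmjd1c, Kdm4a, Jarid2, Jmjd4, Jmjd8, Hspbap1 and Tet2. Their changes ran from -0.51 (Jmjd1c) to -0.21 (Jmjd8 and Kdm3b). Tet1, Jmjd6 and Alkbh5 rose.

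Both flavin-dependent demethylases fell there. Kdm1a (LSD1) removes methyl groups from lysine 4 of histone H3 within the CoREST complex and is needed for progenitor proliferation. Its arrays read 10.36, 10.36 and 10.32 at 3% O2 and 10.67, 10.65 and 10.64 at 21% O2. The 3% O2 group was the lowest of all 8 groups, and Kdm1a fell by 0.31 (SE 0.04, 1.24-fold, adjusted p = 5e-06). Kdm1b fell by 0.37 (SE 0.05, adjusted p = 3.69e-05), and its group mean of 7.71 was likewise the lowest of the 8. In the other 3 settings the differences of both lay between -0.10 and 0.04.

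In the KDM3 family, Jmjd1c fell while Kdm3a did not. Jmjd1c, a large family member linked to lysine 9 of histone H3, read 10.60, 10.66 and 10.61 at 3% O2 and 11.25, 11.06 and 11.09 at 21% O2. Every 3% O2 array was below every 21% O2 array, and Jmjd1c fell by 0.51 (SE 0.07, 1.43-fold, adjusted p = 8.12e-06). Its other probe set gave -0.55 (adjusted p = 3.18e-05). Kdm3b, a demethylase of the same family, fell by 0.21 (SE 0.05, adjusted p = 0.00614). Hr, the hairless corepressor of the family, was at -0.08 with an adjusted p of 0.736.

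Kdm4a, which acts on trimethylated lysine 9 and lysine 36 of histone H3, read 10.42, 10.53 and 10.42 at 3% O2 and 10.84, 10.83 and 10.79 at 21% O2. The groups did not overlap, and Kdm4a fell by 0.36 (SE 0.05, adjusted p = 1.45e-05). The other KDM4 genes measured lay between -0.01 and 0.06 and did not pass. In the KDM5 family, Kdm5a and Kdm5b, which remove methyl groups from lysine 4 of histone H3, were at -0.08 and -0.13 and did not pass either.

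Jarid2, a Jumonji protein without demethylase activity that helps to recruit Polycomb repressive complex 2, fell in midbrain 13 d and cortex 48 h. The midbrain 13 d arrays read 10.42, 10.48 and 10.46 at 3% O2 and 10.93, 10.93 and 10.92 at 21% O2. The cortex 48 h arrays read 10.33, 10.27 and 10.18 against 10.36, 10.53 and 10.51. The midbrain groups were far apart relative to their spread, while the highest 3% O2 array of cortex 48 h, at 10.33, lay just under the lowest 21% O2 array, at 10.36. Jarid2 fell by 0.47 in midbrain 13 d (SE 0.06, 1.39-fold, adjusted p = 5.09e-06) and by 0.21 in cortex 48 h (SE 0.06, adjusted p = 0.023). The cortex call was lost on leaving out any of 4 arrays (replicates 2 and 3 of either oxygen group), with adjusted p up to 0.212.

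Among the Jumonji proteins that hydroxylate other substrates, Jmjd4 fell in the same 2 settings. Jmjd4 codes for the lysyl hydroxylase of the translation release factor. Its arrays in cortex 48 h read 8.06, 7.94 and 7.98 at 3% O2 and 8.59, 8.32 and 8.30 at 21% O2. The groups were apart, and Jmjd4 fell by 0.41 in cortex 48 h (SE 0.10, adjusted p = 0.00986) and by 0.31 in midbrain 13 d (SE 0.10, adjusted p = 0.0271). The midbrain call was lost without replicate 3 of the 3% O2 group or replicate 1 or 3 of the 21% O2 group, with adjusted p up to 0.161.

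Hspbap1, whose protein binds the small heat shock protein Hspb1, fell by 0.38 in midbrain 13 d (SE 0.08, adjusted p = 0.00163). Jmjd8, a Jumonji protein of the endoplasmic reticulum, fell by 0.21 (SE 0.07, adjusted p = 0.0469) and did not pass without any 1 of the 6 arrays. Riox1 and Riox2, hydroxylases of ribosomal proteins, were at -0.15 and 0.19 in this setting and did not pass.

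The TET enzymes split in midbrain 13 d. Tet1 rose by 0.37 (SE 0.10, adjusted p = 0.0101), and its other probe sets gave 0.34 (adjusted p = 0.00982) and 0.36 (adjusted p = 0.0149). Tet2 fell by 0.30 (SE 0.09, adjusted p = 0.0164), a call lost without replicate 1 or 2 at 3% O2 or replicate 1 at 21% O2. Tet3 was at 0.11 and did not pass. In the other 3 settings no TET gene passed, with differences between -0.21 and 0.25.

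**Figure D3:**
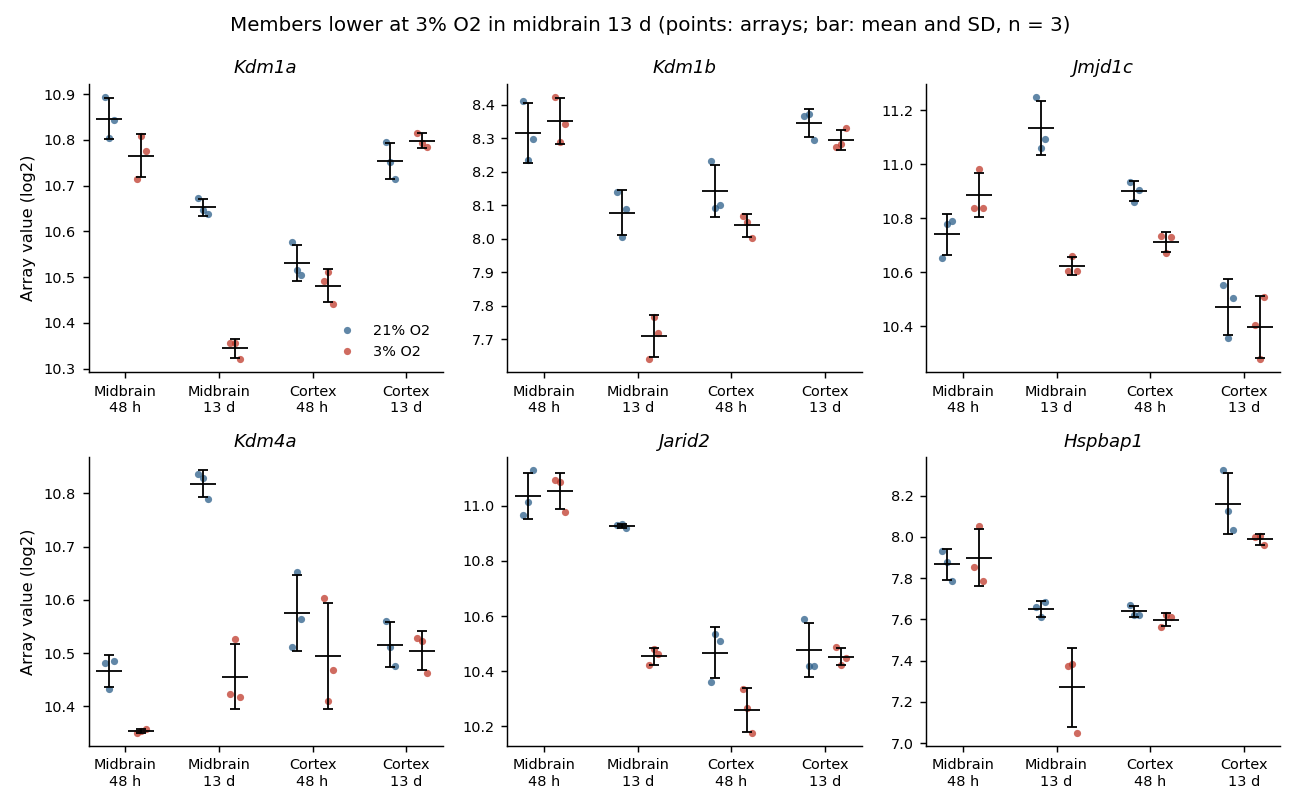
Log2 array values of Kdm1a, Kdm1b, Jmjd1c, Kdm4a, Jarid2 and Hspbap1 in the 8 groups (points are arrays, bars the mean and SD, n = 3; blue 21% O2, red 3% O2). The genes were picked from those that fell in midbrain 13 d, where the red points of each lie below the blue ones. For Kdm1a, Kdm1b and Hspbap1 these red points are the lowest of all groups, but the midbrain 13 d arrays formed a run of their own.

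Some cell markers moved with oxygen in midbrain 13 d, where 23.9% of all probe sets passed. Of 10 pericyte, fibroblast and meninges markers 5 rose and 1 fell, and their mean was 7.90 to 8.23 over the 3% O2 arrays against 7.37 to 7.43 over the 21% O2 arrays. Of 17 cell cycle genes 6 rose and 0 fell, with a mean of 10.81 to 10.94 against 10.54 to 10.61. Of 9 endothelial markers 2 rose and 0 fell, and of 9 oligodendrocyte lineage markers 1 rose and 2 fell. The endothelial count was near the share of all probe sets. The astrocyte markers did not pass. Of 15 neuron markers 2 rose and 4 fell. Of 11 neural stem and radial glia markers 2 rose and 2 fell, and their mean was lower at 3% O2 without overlap, at 10.97 to 11.16 against 11.23 to 11.26. Their part in the falls of the demethylase genes was not tested. In cortex 48 h 7 of the 15 neuron markers fell and 1 rose, with a mean of 8.81 to 9.21 at 3% O2 against 9.23 to 9.42 at 21% O2. The neural stem and radial glia list had 1 that rose and 3 that fell there, with a mean of 10.96 to 11.12 against 11.15 to 11.33. Of 7 astrocyte markers Gfap alone passed in cortex 48 h and fell (-1.19). The astrocyte mean there overlapped, at 9.09 to 9.23 at 3% O2 against 8.64 to 10.14 at 21% O2. Of the 9 oligodendrocyte lineage markers Cnp fell (-0.76), Cspg4 rose (0.41) and the others did not pass. Of all probe sets, 12.3% passed in cortex 48 h. In midbrain 48 h and cortex 13 d 0 markers of any of these lists passed in limma's test. At an unadjusted p under 0.05, 5 of 11 microglia and macrophage markers were lower and 1 higher in midbrain 48 h, among them Cd68 at -0.50 and Tyrobp at -0.55. The share of all probe sets at that threshold was not counted. The mean of the microglia and macrophage list was 7.80 to 8.51 at 3% O2 and 8.30 to 8.51 at 21% O2. Its part in the rises of Kdm3a and Kdm7a was not tested.

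The 16 genes that passed in no setting stayed within -0.32 and 0.36 on the log2 scale. They were Kdm2a and Kdm2b, which act on lysine 36 of histone H3 and bind CpG islands; Kdm4c and Kdm4d; Kdm5a and Kdm5b; Kdm6b, which removes the Polycomb mark from lysine 27; Kdm8 and Phf2; Riox1 and Riox2; Tet3; Fto; Alkbh3, a repair enzyme for alkylated nucleic acid; the Alkbh1 and Nrp probe set; and Hr. Riox2 had the widest difference, 0.36 in cortex 48 h (SE 0.12, adjusted p = 0.0581). Fto was at -0.26 in midbrain 48 h with arrays of 10.11, 10.10 and 10.15 against 10.38, 10.31 and 10.45, and its adjusted p of 0.0527 missed the threshold. For Kdm6b the 95% interval in cortex 13 d ran from 0.05 to 0.37, before adjustment, and its adjusted p was above the threshold.

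The oxygen responses themselves differed between settings, tested as the difference of 2 responses. Between midbrain 13 d and midbrain 48 h, 9 of the 32 genes responded differently, all with the lower response at 13 d, against 15.1% of all probe sets (6.86% higher and 8.24% lower). They were Kdm1a, Kdm1b, Kdm3a, Kdm3b, Jmjd1c, Kdm4a, Jarid2, Jmjd8 and Hspbap1. Jmjd1c had the widest difference of responses, -0.66 (SE 0.09, adjusted p = 7.86e-05), made of 0.15 at 48 h and -0.51 at 13 d. For Kdm3a the difference was -0.50 (SE 0.14, adjusted p = 0.0183), with 0.71 at 48 h and 0.21 at 13 d. The midbrain 48 h and 13 d arrays came from different array runs, but each response was measured within 1 run.

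Between cortex 13 d and cortex 48 h, as labelled, 2 genes responded differently against 4.13% of all probe sets (1.91% higher and 2.23% lower). Kdm3a differed by 0.76 (SE 0.14, adjusted p = 0.00464) and Kdm4b by 0.55 (SE 0.12, adjusted p = 0.0156), both with the higher response at labelled 13 d. Without replicate 1 of cortex 48 h at 21% O2, 7 genes differed, and without replicate 3 of that group 1 did. The share of all probe sets without those arrays was not counted.

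Between regions at 48 h, 1 gene differed, Jmjd1c, by 0.33 (SE 0.09, adjusted p = 0.0381) against 5.88% of all probe sets (2.89% higher and 2.99% lower). That call was lost on leaving out any 1 of 6 arrays, with adjusted p of up to 0.615 over all settings tried, and 3 genes differed after either rescaling, 2 higher and 1 lower. At 13 d, 11 genes had a lower response in midbrain than in cortex, against 13.5% of all probe sets (6.71% higher and 6.80% lower). They were Kdm1a, Kdm1b, Kdm3a, Jmjd1c, Kdm4a, Kdm4b, Kdm5b, Kdm7a, Jarid2, Jmjd8 and Tet2, and Kdm3a differed by -0.84 (SE 0.14, adjusted p = 0.000423) and Kdm7a by -0.72 (SE 0.17, adjusted p = 0.006). The calls of Kdm4b, Kdm5b and Tet2 were each lost on leaving out any of several single arrays. With the replicate number as a block, Kdm4b (adjusted p = 0.0734) and Kdm5b (adjusted p = 0.0696) did not pass.

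The match of culture times between regions mattered here. With the cortex times crossed, 0 members differed at 48 h, where 0.0214% of all probe sets passed, and 4 at 13 d, where 6.58% passed. Those 4 were Kdm1a, Kdm1b, Jmjd1c and Kdm4a, each still lower in midbrain, at -0.26, -0.27, -0.32 and -0.28. Kdm3a went to -0.07 (adjusted p = 0.858) and Kdm7a to -0.30 (adjusted p = 0.349). Kdm4b turned to 0.17 (adjusted p = 0.514).

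At 21% O2, levels of the demethylase genes differed widely between regions and, in cortex, between the labelled times. Between midbrain and cortex at 48 h, 11 were higher in midbrain and 10 lower, against 54.8% of all probe sets (24.3% higher and 30.5% lower). Tet2 was higher in midbrain by 0.81 (SE 0.09), Tet3 by 0.71 (SE 0.06), Kdm5b by 0.60 (SE 0.08), Jarid2 by 0.57 (SE 0.06) and Fto by 0.53 (SE 0.06), with adjusted p of 3.26e-06 or less. On the lower side were Riox2 at -1.05 (SE 0.12), Kdm3a at -0.98 (SE 0.10), Alkbh5 at -0.80 (SE 0.09), Jmjd6 at -0.68 (SE 0.09) and Kdm7a at -0.52 (SE 0.12), with adjusted p of 0.000741 or less. All 4 genes that rose in more than 1 setting were thus lower in midbrain 48 h than in cortex labelled 48 h at 21% O2.

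With cortex labelled 13 d in place of 48 h, 14 genes differed, 10 higher and 4 lower, and 9 of the 21 kept their call and direction. Among them Tet2 was at 0.65, Jarid2 at 0.56, Fto at 0.56, Kdm5b at 0.28, Riox2 at -0.97 and Kdm3a at -0.28. Tet3 went to 0.03 (adjusted p = 0.749), Alkbh5 to -0.16 (adjusted p = 0.174) and Jmjd6 to -0.16 (adjusted p = 0.172). The sign turned for Kdm7a, from -0.52 to 0.22 (adjusted p = 0.155), and for Kdm1b, from 0.17 to -0.03 (adjusted p = 0.715). Jmjd1c turned from -0.16 to 0.27 (adjusted p = 0.00216) and Hspbap1 from 0.23 to -0.29 (adjusted p = 0.00665).

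Between the labelled cortex times at 21% O2, 6 genes were higher at 13 d and 8 lower, against 37.2% of all probe sets (16.8% higher and 20.4% lower). Tet3 was higher by 0.68 (SE 0.06, adjusted p = 7.37e-09), with arrays of 10.80, 10.61 and 10.65 against 10.09, 9.98 and 9.96. Hspbap1 was higher by 0.52 (SE 0.08) and Kdm5b by 0.33 (SE 0.08). Lower at 13 d were Kdm7a at -0.74 (SE 0.12), Kdm3a at -0.70 (SE 0.10), Alkbh5 at -0.64 (SE 0.09), Jmjd6 at -0.53 (SE 0.09) and Jmjd1c at -0.43 (SE 0.07), each with an adjusted p of 5.94e-05 or less. The same cultures differed in their neuron markers, whose mean was 11.27 at labelled 13 d and 9.36 at labelled 48 h, and in their oligodendrocyte markers, at 8.47 and 10.39. The part of cell makeup in these level differences was not tested. Midbrain 13 d was not set against other groups at 1 oxygen level, because its arrays formed a run of their own, so that run and group cannot be told apart.

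**Figure D4:**
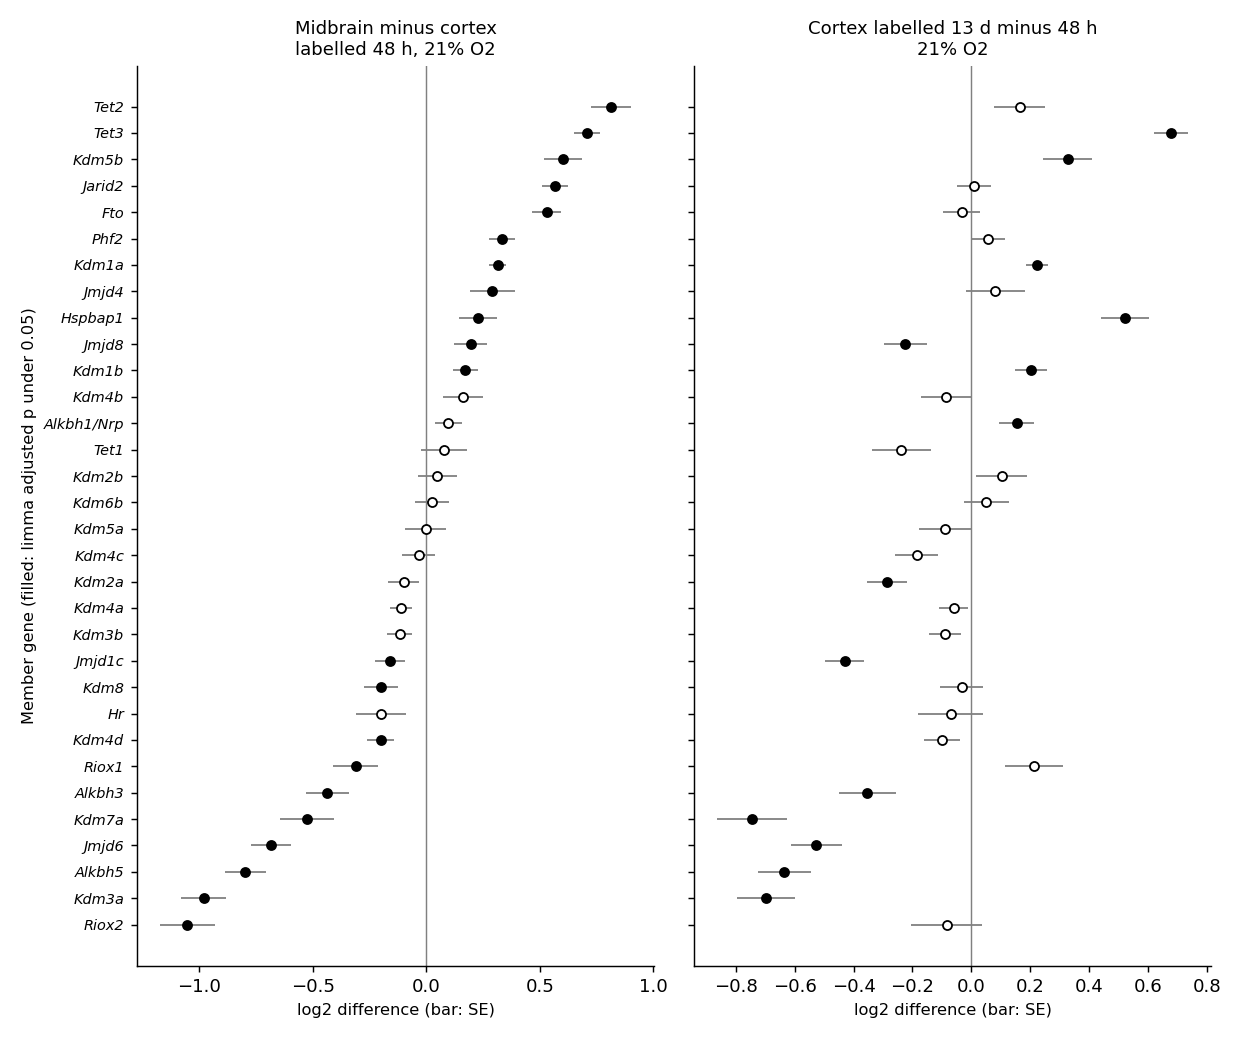
Level differences of the 32 genes at 21% O2 (log2 difference of group means, bar SE, n = 3 arrays per group; filled points have limma adjusted p under 0.05): midbrain minus cortex at labelled 48 h on the left, cortex labelled 13 d minus 48 h on the right. Kdm3a, Alkbh5, Jmjd6 and Kdm7a are filled and below 0 on both sides, and Tet3 and Kdm5b filled and above 0 on both; the sides share the cortex 48 h arrays at 21% O2.

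Over the 8 groups, the spread of the members was led by Riox2 and Kdm3a, whose group means ranged over 1.41 each. Riox2 ranged from 7.57 in midbrain 48 h at 21% O2 to 8.98 in cortex 48 h at 3% O2. Kdm3a ranged from 9.54 in midbrain 48 h at 21% O2 to 10.94 in midbrain 13 d at 3% O2. These ranges take in the midbrain 13 d arrays, which formed a run of their own. The median range was 0.64 for the members and 0.51 for all probe sets. Kdm4d, at 6.37 to 6.68, Alkbh1 with Nrp and Kdm4c were the steadiest, with ranges of 0.31, 0.33 and 0.33.

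Genes that work against or beside the demethylases were followed as whole lists. Their counts at an unadjusted p have no share of all probe sets beside them. Those by limma's adjusted p are to be read beside the shares of all probe sets that passed. These were 1.19% in midbrain 48 h, 23.9% in midbrain 13 d, 12.3% in cortex 48 h and 0.607% in cortex 13 d. Of 27 histone lysine methyltransferases, which place the marks the demethylases remove, 0 passed in midbrain 48 h and 0 in cortex 13 d by limma (3 and 2 at an unadjusted p under 0.05). There were 3 that rose and 5 that fell in midbrain 13 d, and in cortex 48 h 1 rose and 5 fell. Setd1b, which methylates lysine 4 of histone H3, fell by 0.50 in midbrain 13 d (SE 0.06, adjusted p = 2.61e-06) and by 0.52 in cortex 48 h (SE 0.06, adjusted p = 8.5e-06).

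Polycomb subunits, the complexes that Jarid2 and Kdm2b join, gave 4 higher and 6 lower of 23 in midbrain 13 d and 1 higher and 4 lower in cortex 48 h. Suz12, a core subunit of Polycomb repressive complex 2, rose by 0.44 in midbrain 13 d (SE 0.07, adjusted p = 6.65e-05), where Jarid2 fell, and by 0.31 in cortex 48 h (SE 0.07, adjusted p = 0.00483). Cbx8, a reader subunit of Polycomb repressive complex 1, fell by 0.34 in midbrain 13 d (SE 0.06, adjusted p = 0.000119). None of the 23 passed by limma in midbrain 48 h or cortex 13 d (0 in each), with 6 and 0 at an unadjusted p under 0.05.

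Of 18 genes of DNA methylation and base excision, the partners of the TET enzymes, 6 rose and 3 fell in midbrain 13 d and 1 rose and 3 fell in cortex 48 h. Gadd45g, a growth arrest protein linked to active DNA demethylation, fell by 1.11 in midbrain 13 d (SE 0.08, adjusted p = 1.62e-08), and Cxxc5, a CXXC protein that binds unmethylated CpG, rose by 0.64 (SE 0.08, adjusted p = 3.39e-06). By limma 0 passed in midbrain 48 h and 0 in cortex 13 d, with 4 and 0 at an unadjusted p under 0.05.

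Of 17 writers and readers of N6-methyladenosine, 3 rose and 5 fell in midbrain 13 d, where the eraser Alkbh5 rose. Mettl3, the catalytic subunit of the writer, fell by 0.39 (SE 0.08, adjusted p = 0.000867), and Cbll1, a writer-associated protein, fell by 0.32 (SE 0.05, adjusted p = 5.67e-05). In the other 3 settings 0 of the 17 passed by limma. At an unadjusted p under 0.05 these were 3 in midbrain 48 h, 0 in cortex 48 h and 4 in cortex 13 d.

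Of 13 partners of LSD1, 2 rose in midbrain 13 d, where Kdm1a fell: Rcor1 by 0.33 (SE 0.08, adjusted p = 0.00426) and Rcor3 by 0.31 (SE 0.08, adjusted p = 0.00516), both CoREST subunits. Rcor2, the third CoREST gene, rose by 0.58 in cortex 13 d (SE 0.09, adjusted p = 0.0017). Nr2e1 (Tlx), a nuclear receptor of neural stem cells that works with LSD1, fell by 0.86 in cortex 48 h (SE 0.16, adjusted p = 0.00107). In midbrain 48 h 0 of the 13 passed by limma, with 1 at an unadjusted p under 0.05.

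Supply of the substrate was followed through 22 genes of 2-oxoglutarate metabolism. There 4 rose and 2 fell in midbrain 13 d, led by Idh3a, a subunit of the enzyme that makes 2-oxoglutarate in mitochondria, at 0.67 (SE 0.07, adjusted p = 1.64e-06) and the transaminase Got1 at 0.75 (SE 0.08, adjusted p = 1.76e-06). Cortex 48 h had 3 that rose and 0 that fell. Both counts out of 22 were near the shares of all probe sets, 23.9% in midbrain 13 d and 12.3% in cortex 48 h. Limma passed 0 in midbrain 48 h and 0 in cortex 13 d, with 6 and 4 at an unadjusted p under 0.05.

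Of 30 other oxygenases that use 2-oxoglutarate, 2 rose in midbrain 48 h, 11 rose and 8 fell in midbrain 13 d, 8 rose and 4 fell in cortex 48 h, and 4 rose in cortex 13 d. P4ha1, a subunit of the collagen prolyl hydroxylase, rose by 1.21 in midbrain 48 h (SE 0.16, adjusted p = 0.000496) and by 1.56 in cortex 13 d (SE 0.16, adjusted p = 9.8e-06). Egln3, a prolyl hydroxylase that marks HIF, rose by 1.12 (SE 0.21, adjusted p = 0.011) and by 2.44 (SE 0.21, adjusted p = 2.96e-06) in those settings. Plod2, a collagen lysyl hydroxylase, rose by 1.16 in midbrain 13 d (SE 0.13, adjusted p = 2.51e-06). Kdm6a, the X-linked demethylase of lysine 27 of histone H3, was counted in this list and is named after its values were seen: it fell by 0.67 in midbrain 13 d (SE 0.10, adjusted p = 7.33e-05) and did not pass in the other settings.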

How the data were processed

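RNA of 24 mouse cultures was measured on Affymetrix mouse gene arrays, 1 culture per array. The authors deposited normalized log2 values per probe set; how they normalized them is not stated in the labels or the file. Values ran from 4.65 to 14.49, with array medians of 7.35 to 7.42, and were used as deposited. Array number, not read depth, limits precision.

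Of 28856 probe sets, 23410 carried a gene symbol in the platform annotation, 21789 of them 1 symbol and 1621 several. Means of the 8 groups were fitted to all 24 arrays with limma 3.58.1 in R 4.3.3 (lmFit, eBayes, 16 residual degrees of freedom), and p-values were adjusted by Benjamini-Hochberg over the named probe sets at a threshold of 0.05. Differences of responses were contrasts of the same fit. The method was tested on simulated data.

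A gene was represented by its single-symbol probe set with the highest mean over 24 arrays. Any member could be named; array values were printed for those past the threshold, at most the 5 smallest p per oxygen comparison, and of other lists the 2 smallest. The members and lists were chosen with earlier results of these data known.

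In midbrain, each 3% O2 array shared deviations from the group mean with the 21% O2 array of its number. The r was 0.12, 0.22 and 0.24 at 48 h, and 0.12, 0.42 and 0.31 at 13 d. At 13 d, number 1 at 3% O2 correlated more with number 3 at 21% O2 (r = 0.16). The labels do not say that the numbers pair cultures. The main fit therefore left the arrays unpaired, and the replicate block was used only as an alternative. Cortex numbers were mixed. For numbers 1, 2 and 3 the r was 0.29, 0.42 and -0.04 at labelled 48 h, and -0.01, 0.23 and -0.37 at labelled 13 d.

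Alternatives were quantile normalization, median centring, all or brighter probe sets, another probe set per gene, only the arrays compared, array weights, trend and robust moderation, the replicate block, leaving out each array and, chosen after seeing the data, crossed cortex times.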

Additional observations from a re-analysis of the deposited data

Results flagged for a closer look

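The oxygen response of the following genes differed between settings by limma's test of the difference between 2 responses, with n = 3 arrays in each of the 4 groups involved. Between midbrain 13 d and 48 h the response was lower at 13 d for Jmjd1c at -0.66 (adjusted p = 7.86e-05), Kdm3a at -0.50, Jarid2 at -0.49, Hspbap1 at -0.41, Kdm1b at -0.41, Jmjd8 at -0.39, Kdm3b at -0.31, Kdm4a at -0.25 and Kdm1a at -0.23. The call of Hspbap1 was lost on leaving out any of 3 single arrays.

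Between the labelled cortex times the response was higher at 13 d for Kdm3a at 0.76 (adjusted p = 0.00464) and Kdm4b at 0.55 (adjusted p = 0.0156). Between regions at 48 h it was higher in midbrain for Jmjd1c at 0.33 (adjusted p = 0.0381). That call was lost without any of several single arrays, and with the cortex times crossed.

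Between regions at 13 d it was lower in midbrain for Kdm3a at -0.84, Kdm7a at -0.72, Jarid2 at -0.45, Jmjd1c at -0.44, Jmjd8 at -0.43, Kdm5b at -0.41, Tet2 at -0.39, Kdm4b at -0.38, Kdm1a at -0.35, Kdm4a at -0.35 and Kdm1b at -0.32. Their adjusted p ran from 0.000175 for Kdm1a to 0.0477 for Kdm4b. With the cortex times crossed, Kdm1a, Kdm1b, Jmjd1c and Kdm4a still passed and the others did not, and Kdm4b turned to 0.17. The calls of Kdm4b, Kdm5b and Tet2 were also lost without any of several single arrays.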

How the results depend on the processing

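Counts of demethylase genes passing in an oxygen comparison depended on the processing most in the 48 h settings. The causes were not tested. The share of all probe sets was not counted under these alternatives, except with the cortex times crossed. In midbrain 48 h, 2 passed, against 4 after quantile normalization, 4 after median centring, 0 with only the arrays compared, 1 with the probe set of highest variance, and 1 to 3 on leaving out an array. In cortex 48 h, 4 passed, against 7 with brighter probe sets, 7 after quantile normalization, 0 with only the arrays compared, 13 with array weights, and 3 to 9 on leaving out an array (9 without replicate 1 at 21% O2). Midbrain 13 d gave 13, and 10 to 12 on leaving out an array. Cortex 13 d gave 5, against 10 with array weights and 3 to 5 on leaving out an array (3 without any of replicates 1 to 3 at 3% O2 or replicates 2 and 3 at 21% O2).

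Differences of responses gave 9 in midbrain (8 to 10 on leaving out an array) and 2 in cortex (1 with only the arrays compared, 12 with array weights, 1 to 7 on leaving out an array). Between regions they gave 1 at 48 h (3 after quantile normalization, 3 after centring, 0 with only the arrays compared, 4 with array weights, 0 with the probe set of highest variance, 0 with cortex times crossed, 0 to 4 on leaving out an array) and 11 at 13 d (4 with cortex times crossed, 8 to 12 on leaving out an array). Crossing the cortex times turned Kdm4b at 13 d to 0.17. Level counts ran from 16 to 20 between regions and 12 to 17 between cortex times on leaving out an array.

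With the replicate block, counts were 2 in midbrain 48 h, 13 in midbrain 13 d, 6 in cortex 48 h and 4 in cortex 13 d, and it moved no count by over 1.5 times; 4 of 47 single gene calls were lost under it, namely Jarid2 in cortex 48 h (adjusted p = 0.0564), Kdm4b in cortex 13 d (adjusted p = 0.0897), and Kdm4b and Kdm5b in the 13 d difference between regions. Of the 47, 47 held under centring, 47 under array weights, 46 under quantile normalization and 38 with only the arrays compared. On leaving out an array, 358 of 420 values held and 62 no longer passed. With the cortex times crossed, 4 of 12 held, 7 no longer passed and 1 reversed.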
